A study of Mus musculus with 6 samples.

Results

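The smooth muscle contractile genes described here are 10 genes for proteins of the actin and myosin filaments of smooth muscle: Acta2, Actg2, Myl9, Tagln, Cnn1, Cnn2, Myh11, Cald1, Smtn and Lmod1. They were chosen by name, and every array probe whose accession belongs to one of them was taken. This gave 13 of the 39429 probes on the array, where 20659 genes could be named. They were read in C2C12, a mouse myoblast line that stops dividing and fuses into myotubes in differentiation medium. Cells of 3 samples had received a negative control siRNA (si-NC), and those of the other 3 an siRNA that targets lncMGPF, a long noncoding RNA (si-lncMGPF). All 6 samples came after 2 days of differentiation, so both groups share the transfection and the medium change, and total RNA was hybridised to 1-colour arrays. All samples are of 1 cell line, and nothing in the labels tells if replicates were grown as separate cultures. P-values therefore cover the spread between these samples alone, and that spread may be technical.

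Smooth muscle contracts when phosphorylated regulatory light chain lets myosin pull on actin filaments, and calponin, caldesmon and transgelin bind those filaments and tune the interaction. Most genes of this set are targets of serum response factor, SRF, which binds a DNA element called the CArG box together with the coactivators myocardin or the myocardin-related transcription factors (MRTFs), and MRTFs enter the nucleus when actin polymerises. Skeletal myoblasts also express several of these genes before and during fusion, among them the smooth muscle alpha-actin gene, although the mature contractile apparatus of skeletal muscle is built from striated isoforms.

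The RefSeq promoter table used here (GRCm38.p6) held windows for 7 of the 10 genes, 8 windows in all. It held none for Actg2, Tagln and Myh11. The 250 bases before the annotated start were searched for the CArG box. The pattern reads the same on both strands. An exact box stood in the windows of Myl9 and Cnn2, 2 of the 8 windows, against 1.47% of all 32851 windows. With at most 1 of the 6 inner bases replaced by G or C, 3 of the 8 windows held a match. This compares with 8.59% of all windows, and Acta2 was then included with 2 such elements. In lists of genes around this set, described below, an exact box stood in 6 of 19 windows of other SRF and MRTF targets. It stood in 4 of 20 windows of family relatives, 4 of 42 of contraction and adhesion partners and 1 of 24 of regulators. With 1 replacement allowed these were 8, 5, 8 and 3 windows, so such matches were not particular to this set. Windows for Myl9, Cnn2 and Acta2 are shown because they hold the matches, and that for Cnn1 as an example without a match. Cnn1, like Myl9, was lower on every si-lncMGPF array, as were Actg2 and Tagln, which had no window. A link between a box and a change was not tested. Capitals mark the box, exact or with 1 inner replacement.
Myl9 (chr2:156775214-156775463, plus strand): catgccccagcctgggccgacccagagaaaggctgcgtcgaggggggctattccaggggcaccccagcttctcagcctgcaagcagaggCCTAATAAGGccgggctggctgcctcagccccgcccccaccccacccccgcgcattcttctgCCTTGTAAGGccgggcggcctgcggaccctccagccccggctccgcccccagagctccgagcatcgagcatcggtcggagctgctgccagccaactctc
Cnn2 (chr10:79988350-79988599, plus strand): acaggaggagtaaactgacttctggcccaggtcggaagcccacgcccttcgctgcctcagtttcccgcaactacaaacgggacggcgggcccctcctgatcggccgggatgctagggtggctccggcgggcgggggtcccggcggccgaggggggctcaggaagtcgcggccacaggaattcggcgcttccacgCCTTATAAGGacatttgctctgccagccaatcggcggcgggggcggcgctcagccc
Acta2 (chr19:34255374-34255623, minus strand): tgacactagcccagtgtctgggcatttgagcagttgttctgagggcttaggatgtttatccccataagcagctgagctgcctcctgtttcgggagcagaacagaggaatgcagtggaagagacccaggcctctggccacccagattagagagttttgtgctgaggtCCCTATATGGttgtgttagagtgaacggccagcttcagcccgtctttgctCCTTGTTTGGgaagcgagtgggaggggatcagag
Cnn1 (chr9:22099003-22099252, plus strand): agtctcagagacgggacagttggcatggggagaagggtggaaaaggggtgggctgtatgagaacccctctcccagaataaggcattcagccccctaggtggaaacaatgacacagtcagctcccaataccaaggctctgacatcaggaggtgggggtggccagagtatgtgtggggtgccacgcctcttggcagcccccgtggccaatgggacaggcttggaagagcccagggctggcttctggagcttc
In Myl9 the exact box CCTAATAAGG began at position -161 from the start and the element with 1 replacement, CCTTGTAAGG, at -99. The box of Cnn2, CCTTATAAGG, began at -56. In Acta2 CCCTATATGG began at -84 and CCTTGTTTGG at -34. A match is a description of these letters, and the windows of Cald1, Smtn and Lmod1 held none.

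The question of the study is which genes change when lncMGPF is knocked down. Of the 13 probes, 11 were well above background on all 6 arrays and were tested, and they stand for 8 genes. No tested probe therefore entered through 1 group alone. Among these genes Myl9, Actg2, Cnn1 and Tagln were lower on each si-lncMGPF array than on any si-NC array, by 1.49-fold, 1.39-fold, 1.33-fold and 1.26-fold, while Acta2, Cnn2 and the main probes of Cald1 and Smtn overlapped between the groups. Of the 11 probes 0 passed an adjusted p of 0.05 (limma), against 0.106% of the 24616 tested probes (0.0772% with si-lncMGPF lower). At an unadjusted p below 0.05, 4 of the 11 member probes were lower and 0 higher, where 15.8% of all tested probes differed in either direction and 9.43% were lower. The groups did not overlap for 5 of the 11 member probes, all with si-lncMGPF lower, where 22.9% of all tested probes did not overlap in either direction and 13.3% were lower. A negative log2 change was found for 7 of the 11 probes and for 47.7% of all, and the si-lncMGPF array of slide 1 was below the si-NC range for 8 of the 11 and for 43.2% of all. Counted with 1 probe per gene, 0 of 8 genes passed (0.147% of all 14243 tested genes), 6 had a negative log2 change (46% of all) and 4 were lower without overlap (12.7% of all). The median log2 change of the 8 genes was -0.22, and that of all tested genes was 0.02.

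Arrays that share a scan identifier in the file headers are taken here to be from the same slide. By this rule 4 arrays were on slide 1, namely the si-NC arrays with the first si-lncMGPF replicate. The remaining 2 si-lncMGPF arrays, replicates 2 and 3, came from slide 2. The 75th percentile of the signal was 688.2 to 930.7 intensity units in si-NC, 923.0 on si-lncMGPF replicate 1, and 580.2 and 492.1 on the slide 2 arrays. Negative control spots read 20.1 to 21.82 on slide 1 and 37.29 and 42.49 on slide 2. Since slide 2 holds no si-NC array, the effects of slide and siRNA cannot be told apart on it. Changes of the contractile genes are given over all arrays and also for each slide against the same si-NC arrays. No probe named for lncMGPF was found, so its level was not checked.

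Cell identity was read from marker lists, as the scaled signal, which is the signal divided by the array's 75th percentile, summed over 1 probe per gene. Markers of C2C12 myoblasts and myotubes summed to 164 to 169 in si-NC and 147 to 169 in si-lncMGPF. All 11 were above background on all 6 arrays. Of 9 markers of mature smooth muscle 4 were (Cnn1, Smtn, Synpo2 and Npnt), and Myocd, Myh11, Lmod1, Kcnmb1 and Itga8 were on none. The summed level of that list, of which Cnn1 and Smtn are also contractile genes of this set, was 36.0 to 42.7 in si-NC and 30.5 to 39.6 in si-lncMGPF. For pericytes 4 of 7 markers were above background on all arrays and Rgs5, Kcnj8 and Abcc9 on none, with sums of 20.9 to 22.9 and 18.1 to 21.9. The median log2 change of the 4 was -0.17. Cspg4 (-0.25) and Pdgfrb (-0.27) were lower without overlap, with an unadjusted p of 0.0179 and 0.0314 (limma, adjusted p of 0.248 and 0.276). Notch3 (0.085), the brightest of the list, and Higd1b (-0.08) overlapped between the groups. Of all tested genes 12.7% were lower without overlap. Fibroblast markers (7 of 8 above background on all arrays) summed to 218 to 274 in si-NC and 219 to 297 in si-lncMGPF. Endothelial markers (2 of 6, with Tek, Cdh5 and Emcn on none) summed to 1.29 to 1.69 and 1.52 to 1.66. The leukocyte sums (4 of the 5 markers with a probe were above background on all arrays) did not overlap between groups, at 3.55 to 4.31 and 2.08 to 3.19. Of that list, Itgam had a log2 change of -1.095, and of -0.25 on its other probe above background on all arrays. It was singled out after its values were seen, as Cspg4 and Pdgfrb were. The part of these markers in the results below was not tested. In such bulk RNA, fewer cells of a type and less RNA per cell cannot be told apart.

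Among the actins, Acta2 (NM_007392) encodes the smooth muscle alpha-actin of thin filaments. Its scaled signal in the 3 si-NC arrays, by replicate number, was 112.8, 146.5 and 136.0. In si-lncMGPF it was 116.1, 147.2 and 154.6. The groups overlapped, with the lowest and the highest array 1 from each group. The log2 change was 0.08 (SE 0.15, 95% interval -0.29 to 0.44, limma adjusted p = 0.814), with -0.17 on slide 1 and 0.20 on slide 2. After quantile normalization it was -0.10, so no direction is given. Its signal was 76070 to 107200 intensity units, and no spot was flagged as saturated.

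Actg2 (NM_009610) encodes the gamma-actin of enteric smooth muscle. Its scaled signal was 15.5, 17.5 and 16.2 in si-NC, and 10.7, 12.4 and 12.2 in si-lncMGPF. Each si-lncMGPF array lay below every si-NC array, and the lowest was si-lncMGPF replicate 1. The log2 change was -0.48 (SE 0.10, 95% interval -0.72 to -0.24), which is 28.2% lower, with an unadjusted p of 0.00235 and an adjusted p of 0.187 (limma). It was -0.61 on slide 1 and -0.41 on slide 2. Without si-lncMGPF replicate 1, which leaves each group on a slide of its own, Actg2 passed (log2 change -0.41, adjusted p = 0.0279, limma). In that setting 4130 of the 24616 tested probes passed. Actin transcripts share long stretches of coding sequence, and probe sequences were not used here, so signals of single actin genes are uncertain.

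Myl9 (NM_172118) encodes the regulatory light chain whose phosphorylation switches smooth and nonmuscle myosin on. Its scaled signal was 20.4, 23.1 and 21.7 in si-NC, and 12.4, 16.2 and 15.5 in si-lncMGPF. All 3 si-lncMGPF arrays were below all 3 si-NC arrays, and the gap between the groups, from 16.2 to 20.4, exceeded the range within si-NC. The log2 change was -0.57 (SE 0.13, 95% interval -0.87 to -0.27), or 32.7% lower, with an unadjusted p of 0.00303 and an adjusted p of 0.191 (limma). Slide 1 gave -0.81 and slide 2 gave -0.45. A lower change than that of Myl9 was found for 5.31% of all tested probes. With normexp background correction followed by quantile normalization Myl9 passed (log2 change -0.63, adjusted p = 0.0405, limma), as it did without si-lncMGPF replicate 1 (-0.45, adjusted p = 0.0235, limma). Of the 24616 tested probes, 32 passed in the first of these settings and 4130 in the second. Over all alternatives the adjusted p of Myl9 (limma) ranged from 0.00334 to 0.646. The lowest came with gene-by-gene array weights, which called 10211 probes.

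Myh11, the smooth muscle myosin heavy chain, and Lmod1, a leiomodin that nucleates actin filaments in smooth muscle, were not well above background on any array. The signal of Myh11 was 5.03, 6.04 and 7.32 intensity units in si-NC and 3.92, 4.26 and 4.46 in si-lncMGPF. Lmod1 had 5.49, 2.68 and 8.40 in si-NC and 7.53, 3.69 and 9.26 in si-lncMGPF. Both are reported with no fold and no test.

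Tagln (NM_011526) encodes transgelin (SM22), an actin-binding protein of the calponin family. Its scaled signal was 32.4, 38.0 and 34.9 in si-NC, and 22.8, 30.8 and 30.4 in si-lncMGPF. The groups did not overlap, and si-lncMGPF replicate 1 lay far below the other 2 arrays of its group. The log2 change was -0.34 (SE 0.14, 95% interval -0.68 to 0.01, adjusted p = 0.322, limma), with -0.62 on slide 1 and -0.20 on slide 2.

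Cnn1 (NM_009922) encodes calponin 1, which inhibits the ATPase of actin-bound myosin. The scaled signal was 10.3, 11.4 and 10.4 in si-NC, and 6.73, 8.87 and 8.71 in si-lncMGPF. No si-lncMGPF array reached the si-NC range, and replicate 1 was again the lowest. Its log2 change was -0.41 (SE 0.13, 95% interval -0.73 to -0.10, unadjusted p of 0.0176, adjusted p = 0.246, limma), with -0.67 on slide 1 and -0.28 on slide 2.

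Cnn2 encodes calponin 2, a form that is also made outside smooth muscle. Its brighter probe read 12.8, 12.9 and 12.9 in si-NC, and 12.4, 13.2 and 13.8 in si-lncMGPF. The si-NC arrays were nearly equal and lay inside the range of si-lncMGPF. The log2 change was 0.02 (SE 0.09, 95% interval -0.18 to 0.23, adjusted p = 0.902, limma), and the second probe had 0.11 (95% interval -0.13 to 0.35). On slides 1 and 2 these were -0.06 and 0.065 for the brighter probe, and 0.09 and 0.12 for the second. After quantile normalization the brighter probe had -0.006, so no direction is given.

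Caldesmon, which blocks myosin from actin, is encoded by Cald1, and smoothelin, a marker of contractile smooth muscle cells, by Smtn. The brighter Cald1 probe read 5.06, 4.54 and 4.76 in si-NC and 4.18, 4.55 and 4.65 in si-lncMGPF, with overlap. The second Cald1 probe read 4.70, 4.36 and 4.51, and then 3.34, 4.23 and 3.63, without overlap. Their log2 changes were -0.10 (SE 0.09) and -0.28 (SE 0.11), with adjusted p of 0.592 and 0.296 (limma), so the 2 probes of this gene differed in size but not in sign. On slides 1 and 2 they were -0.20 and -0.06 for the brighter probe, and -0.44 and -0.205 for the second. Smtn was read by probes for 2 transcripts. The brighter gave 25.3, 30.9 and 29.0 in si-NC and 23.4, 30.3 and 26.5 in si-lncMGPF, with a log2 change of -0.09 (SE 0.13), -0.28 on slide 1 and 0.001 on slide 2. The other gave 0.73, 0.78 and 0.77, and then 0.78, 0.75 and 0.74, with a log2 change of 0.005 (SE 0.08), 0.05 on slide 1 and -0.02 on slide 2. Both overlapped between the groups.

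**Figure D1:**
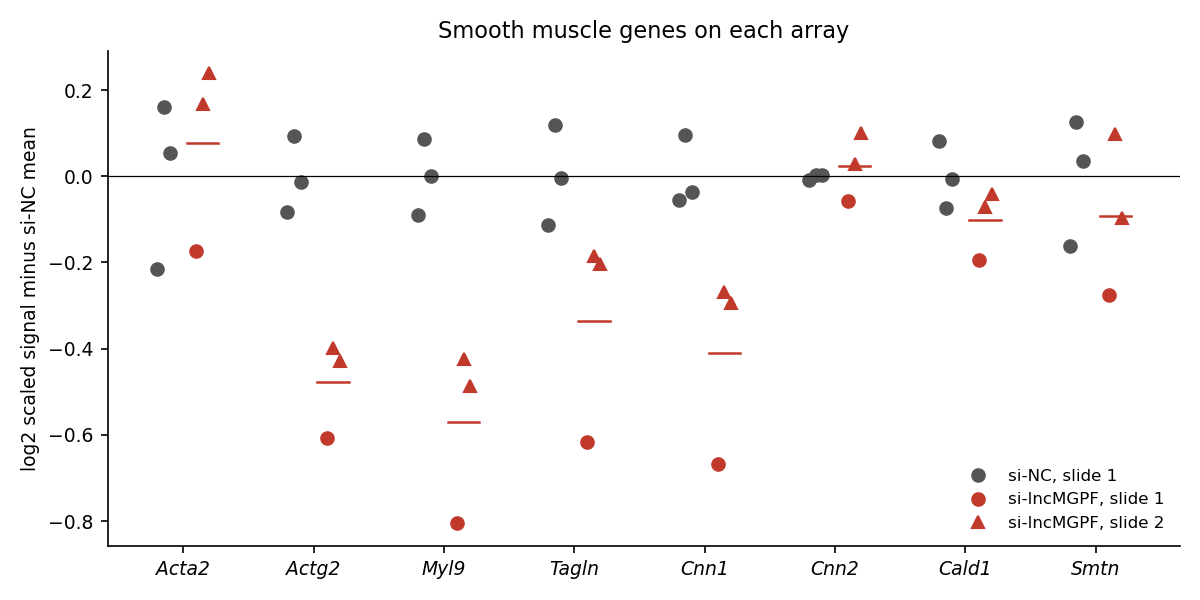
Log2 scaled signal of the brightest probe of 8 smooth muscle genes on each of 6 arrays, minus the si-NC mean. Points are arrays (circles slide 1, triangles slide 2), and red bars are si-lncMGPF means. All si-lncMGPF arrays lie below all si-NC arrays for Actg2, Myl9, Tagln and Cnn1, and the 2 groups overlap for Acta2, Cnn2, Cald1 and Smtn.

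**Figure D2:**
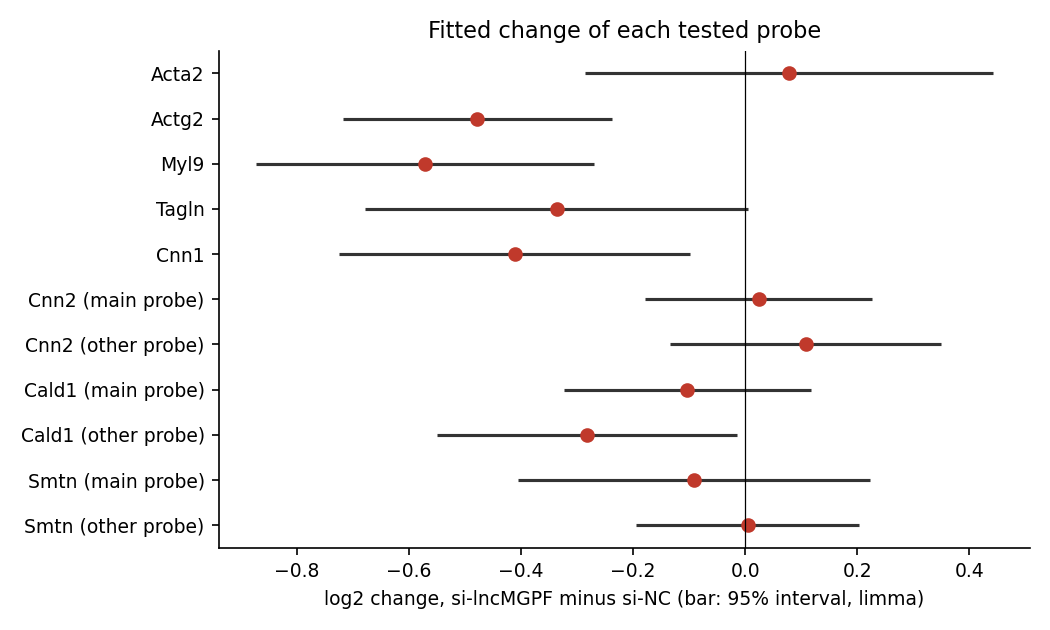
Log2 change of each of the 11 tested probes, si-lncMGPF minus si-NC, with the 95% interval from limma over 6 arrays. The intervals of Actg2, Myl9, Cnn1 and the second Cald1 probe lie below 0, unadjusted for the number of probes, and that of Tagln ends at 0.01.

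Across the 6 arrays 4 of the genes followed each other closely and the other 4 less so. Pearson correlations of log2 scaled signal among Myl9, Actg2, Tagln and Cnn1 were 0.909 to 0.991. Acta2 correlated at 0.090 with Actg2 and 0.160 with Myl9, and at 0.782 with Cnn2 and 0.720 with Smtn. Smtn correlated at 0.587 to 0.798 with those 4 genes, highest with Tagln, and at 0.348 with Cnn2. Cald1 correlated at 0.620 to 0.713 with the same 4 and at -0.066, 0.200 and 0.328 with Acta2, Smtn and Cnn2, so the other 4 genes did not form a set of their own. These are descriptions over 6 arrays that share slides, groups and the scaling of each array, so they are given without a p.

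The ratio of 2 genes within an array is not altered by a scaling that divides all signals of the array by 1 factor, such as the 75th percentile or the median, but it is altered by scalings that act by signal strength. For the first reason 12 ratios were computed, a choice made after the values were seen. Relative to the si-NC mean, the log2 ratio of Myl9 to Myl12a, the gene of a nonmuscle regulatory light chain, was -0.05, 0.06 and -0.01 in si-NC and -0.705, -0.75 and -0.68 in si-lncMGPF. All 3 si-lncMGPF arrays lay below the si-NC arrays, with a difference between group means of -0.71. The ratio of Myl9 to Myl12b, the other nonmuscle light chain, was -0.04, 0.02 and 0.02 in si-NC and -0.79, -0.54 and -0.74 in si-lncMGPF, a difference of -0.69, and that of Cnn1 to Cnn2 was -0.05, 0.09 and -0.04, and then -0.61, -0.30 and -0.40. In these ratios the si-lncMGPF array of slide 1 was the lowest, which it was not for Myl9 to Myl12a. Myl9 to Acta2 had a difference of -0.65, Actg2 to Acta2 -0.56, Cnn1 to Acta2 -0.49 and Tagln to Acta2 -0.41. Within the calponin and transgelin family, Cnn1 was lower against Cnn2 (-0.435) and against Cnn3 (-0.41), and Tagln against Tagln2 (-0.29), whose second probe (log2 change 0.31) stood above the first (-0.05). Actg2 against the cytoplasmic actin gene Actg1 had -0.49. The groups did not overlap for these 10 ratios, each with an exact two-sided permutation p of 0.1, the smallest that 3 arrays against 3 can give, and 0.12 after Benjamini-Hochberg adjustment over the 12 ratios. The design cannot reach 0.05 in such a test. Each of the 10 has Myl9, Actg2, Tagln or Cnn1 as its first gene, and those genes already separated the same arrays. Their p-values are therefore no further support. The ratio of Acta2 to Actb overlapped (-0.12, exact permutation p of 0.4), as did that of Acta2 to the skeletal actin gene Acta1 (0.38, exact permutation p of 0.4). That last ratio was -0.40 on si-lncMGPF replicate 1 and 0.92 and 0.63 on replicates 2 and 3. After quantile normalization the difference of Myl9 to Acta2 was -0.49, that of Actg2 to Acta2 -0.41, that of Cnn1 to Acta2 -0.33 and that of Tagln to Acta2 -0.275, each smaller in size than under the first scaling, while Cnn1 to Cnn2 had -0.42. A ratio shows unequal change of the genes, not which of them changed.

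**Figure D3:**
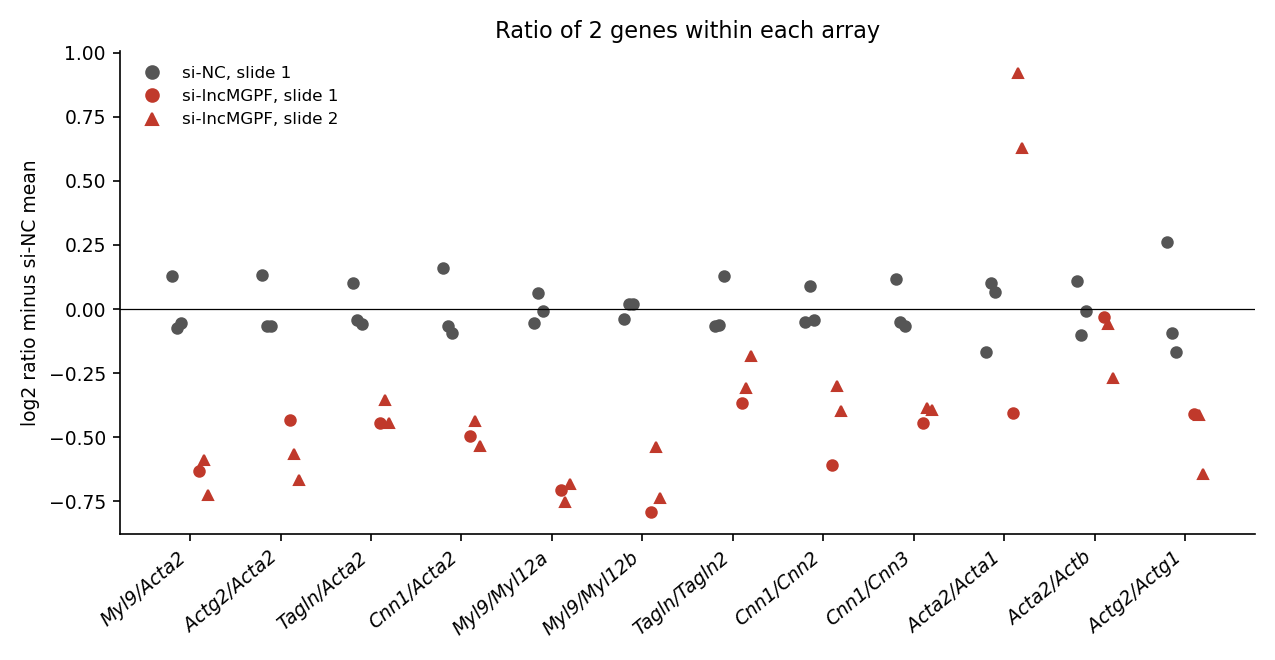
Log2 ratio of the signals of 2 genes within each array, minus its si-NC mean, for 12 pairs. Circles are slide 1 arrays and triangles slide 2 arrays. The si-lncMGPF arrays lie below all si-NC arrays for 10 pairs, and the groups overlap for Acta2 to Acta1 and Acta2 to Actb.

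The changes differed in size between the slides. Under scaling by the 75th percentile, the median over the 8 genes was -0.44 for the si-lncMGPF array on slide 1 and -0.13 for those on slide 2, where all tested genes had -0.07 and 0.06. When a trend of each array with signal strength was removed, these medians of the 8 genes were -0.35 and -0.25. When each array was centred on its median, they were further apart, at -0.50 and -0.10 (all tested genes -0.13 and 0.08), with -0.67 and -0.17 for Tagln. With the trend removed Myl9 had -0.71 on slide 1 and -0.58 on slide 2, Actg2 -0.51 and -0.53, Cnn1 -0.57 and -0.38, and Tagln -0.525 and -0.35. After quantile normalization Actg2 had -0.51 and -0.50, and Acta2 -0.11 and -0.09, both slides then below the si-NC range of -0.04 to 0.04. For Myl9, Actg2, Cnn1 and Tagln the groups stayed apart under each of the 5 scalings tried. Acta2 was lower without overlap after quantile normalization and normexp, and overlapped under the other 3. The SE of Acta2 was 0.15 under the first scaling and 0.07 after quantile normalization. All scalings use the same arrays, so these separations are no further support. Under the first scaling 12.7% of all tested genes were lower without overlap, and that share was not counted under the others.

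**Figure D4:**
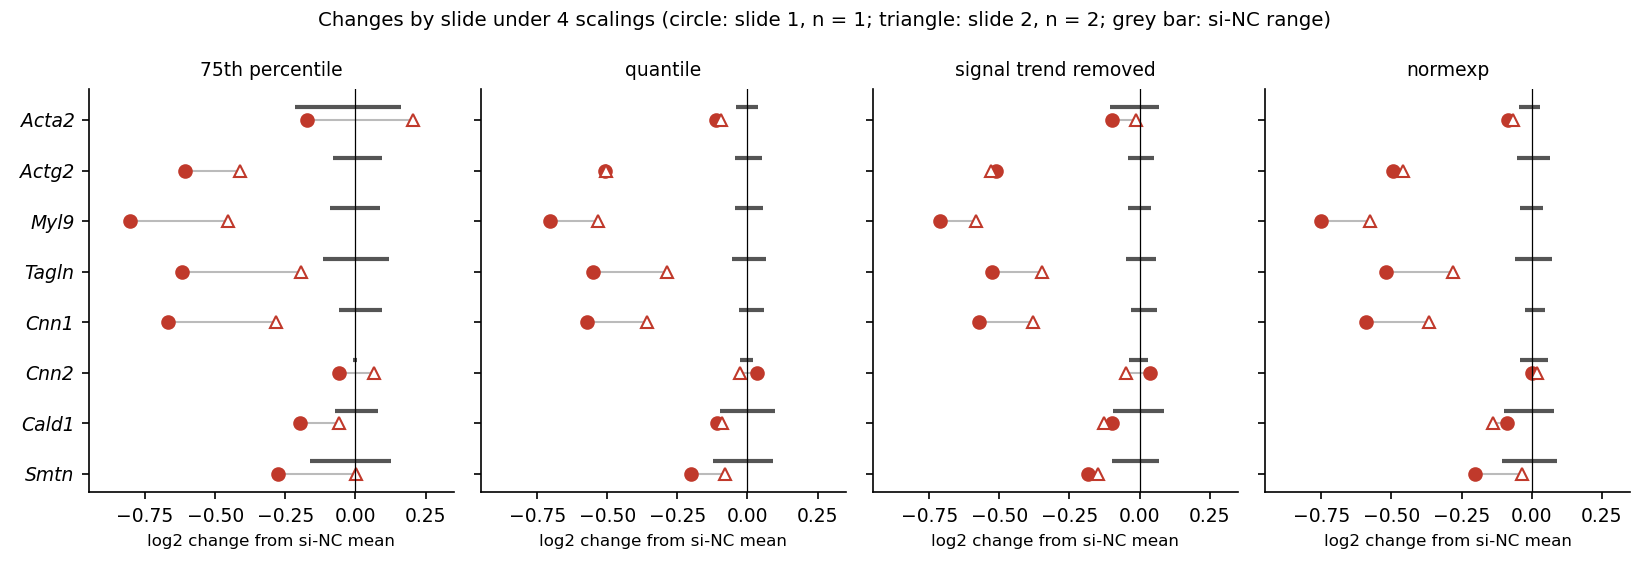
Log2 change from the si-NC mean for each gene under 4 scalings, with the si-lncMGPF array of slide 1 (circle, n = 1), the mean of the slide 2 arrays (triangle, n = 2) and the range of the si-NC arrays (grey bar). Myl9, Actg2, Tagln and Cnn1 lie left of the si-NC range on both slides in every panel.

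Genes around the contractile set were described in 4 lists, with 0 members past the adjusted threshold in any of them (limma). Family relatives, other genes of the same or related protein families, had a median log2 change of 0.01 over 19 of 21 genes. At an unadjusted p below 0.05 (limma) 3 were lower and 2 higher. Of all tested genes 8.14% were lower and 14.1% differed in either direction. Those with the smallest p were Lmod2 (-0.86, adjusted p = 0.230), a leiomodin of striated muscle, with -0.29 on slide 1 and -1.15 on slide 2, Smtnl2 (0.75, adjusted p = 0.232), with 0.28 on slide 1 and 0.99 on slide 2, and Myh10 (-0.28, adjusted p = 0.268), a nonmuscle myosin heavy chain. The brightest, Actb for cytoplasmic actin, had 0.20 (adjusted p = 0.657). Smtnl2 was above background on all 6 arrays but dim, with a mean log2 scaled signal of -4.78, against 7.74 for Actb. The signal of control spots differed between the slides, as given above, and its part in the change of Smtnl2 was not tested.

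Contraction and adhesion partners, among them kinases and phosphatase subunits that act on the light chain and proteins of focal adhesions, had a median of -0.03 over 35 of 37 genes. At an unadjusted p below 0.05 (limma) 4 were lower and 0 higher, where 8.14% of all tested genes were lower and 14.1% differed in either direction. The smallest p were those of Fhl2 (-0.475, adjusted p = 0.175), a LIM protein that binds SRF, Nexn (-0.34, adjusted p = 0.224), an actin-binding protein, and Ppp1r12c (-0.26, adjusted p = 0.239), a regulatory subunit of myosin phosphatase. All 3 were lower without overlap, as were 5 of the 35 genes in all and 12.7% of all tested genes. The brightest, the intermediate filament gene Vim, had 0.03.

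Regulators of smooth muscle genes had a median of -0.02 over 26 of 28 genes. At an unadjusted p below 0.05 (limma) 2 were lower and 0 higher, where 8.14% of all tested genes were lower and 14.1% differed in either direction. Tgfbr1 (-0.35, adjusted p = 0.218), a receptor of transforming growth factor beta, Smad7 (-0.30, adjusted p = 0.292), an inhibitor and target of that pathway, and Elk4 (-0.26, adjusted p = 0.342), an SRF partner, had the smallest p. The brightest probe was one for Elk1 (0.09), with a mean log2 scaled signal of 7.49, against 7.07 for Acta2. Probe sequences were not used, so what this probe reads is uncertain. The 2 other probes of Elk4 and a second probe of Elk1 were above background on only 4 of 6 arrays, and no change is given for them. Chosen after their values were seen, Srf had -0.21 on its brighter probe and 0.03 on another. Of the MRTF genes, Mrtfa had -0.19 on its brighter probe and 0.004 on another, and Mrtfb -0.075, -0.09 and -0.05 on its 3 probes, with 0 of them past the threshold (limma). Myocd, the gene of myocardin, was not above background on any array.

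Other SRF and MRTF targets had a median of 0.06 over 19 of 20 genes. At an unadjusted p below 0.05 (limma) 2 were lower and 2 higher, where 8.14% of all tested genes were lower and 14.1% differed in either direction. Ccn2 (-0.39, adjusted p = 0.198), a matricellular growth factor, and the integrin gene Itga5 (-0.35, adjusted p = 0.214) were lower without overlap, and the immediate-early gene Ier2 (0.28, adjusted p = 0.236) was higher without overlap. The brightest was Cfl1 (0.17), for the actin-severing protein cofilin.

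**Figure D5:**
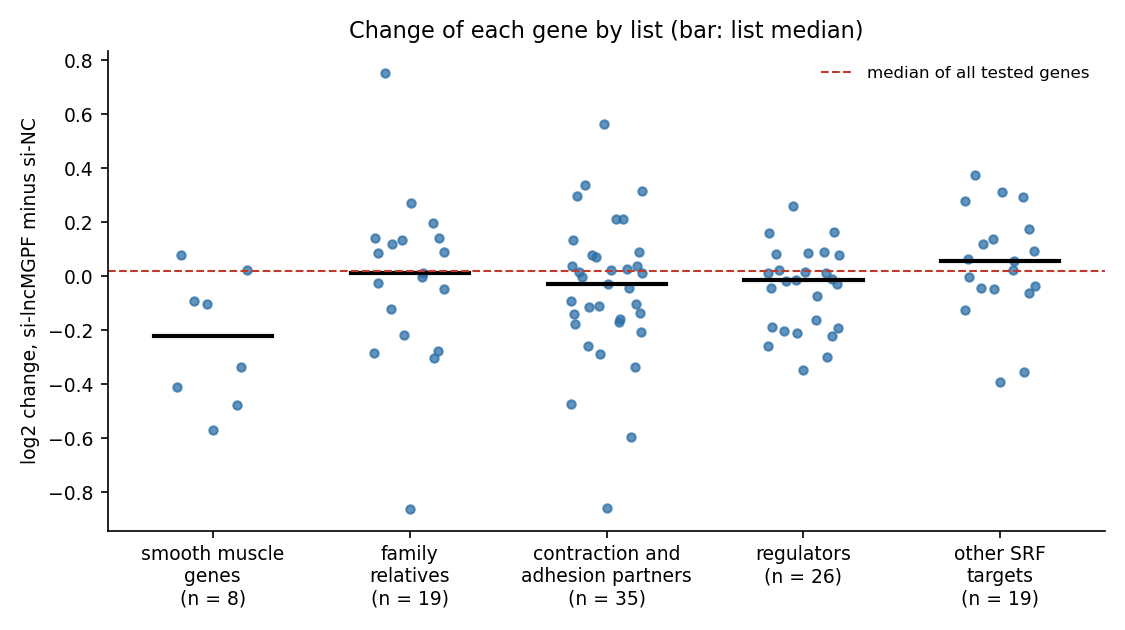
Log2 change, si-lncMGPF minus si-NC, of each tested gene in 5 lists. Black bars are list medians (-0.22 for the 8 smooth muscle genes, and from -0.03 to 0.06 for the other lists), and the dashed line is the median of all tested genes at 0.02.

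The mean of the 8 genes' standardised profiles was lowest on si-lncMGPF replicate 1 (-1.48), between 0.05 and 0.10 on replicates 2 and 3, and between 0.11 and 0.73 in si-NC. Among 12899 genes above background on all arrays, the 5 others with the highest Pearson correlation to it over 6 arrays were Hacd4 (0.9995), Slc2a4 (0.9992), Phf11d (0.9946), Pclo (0.9940) and Cdh2 (0.9924). Their log2 changes were -0.17, -0.25, -0.20, -0.16 and -0.185, none past the threshold (limma, adjusted p from 0.398 to 0.502). These arrays share slides and groups, and the profile follows the 1 low array.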

How the data were processed

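Total RNA of 6 C2C12 samples was labelled with Cy3, per the labels. Per the file headers, the scanner tables give linear intensity per spot, background-subtracted and detrended by Feature Extraction 11.0.1.1. The deposited series table equalled that processed intensity exactly, with no tolerance, at 44397 of 44397 spots on each array, so its scale is linear without centring. Its medians were 59.73, 46.5 and 50.88 for si-NC replicates 1 to 3, and 64.44, 36.7 and 33.69 for si-lncMGPF. The sources used here name no test by the authors.

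Control spots and spots marked as outliers (117 to 134 per array) were left out, and 56 probes without a value on every array were dropped. Log2 signals were averaged per probe and the array's 75th percentile subtracted, which hides any change common to most transcripts. Probes well above background on all arrays of at least 1 group were tested (24616) by lmFit and eBayes of limma 3.58.1 (R 4.3.3), without covariates. P-values were adjusted over all of them by Benjamini-Hochberg, with a threshold of 0.05. The brightest tested probe stood for a gene. The test was checked on simulated data. Accessions were named through a RefSeq table of GRCm38.p6, while the array design uses mm9, so array positions are not given. Named genes were all members, and from each list those past the threshold, the 3 with the smallest p and the brightest. Genes named outside this rule are marked in the text as chosen after their values were seen. A result for 1 marker gene is not reported here. The members and lists were chosen with earlier results of these data known. Alternatives covered scaling, background correction, filters, priors, array weights, slide and replicate blocks and left-out arrays. Figures were drawn with matplotlib 3.10.9. The number of arrays limits the precision.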

Additional observations from a re-analysis of the deposited data

How the results depend on the processing

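Myl9, Actg2, Tagln, Cnn1 and Cald1 kept a negative change under every alternative. The count of all called probes, 26, was 6 after quantile normalization, 4 with array weights, 10 with slide as a block, 1 on the slide 1 arrays alone, and 0 without a filter on dim probes (5268 at an unadjusted p below 0.05, limma). The default array weights stopped before they converged. Gene-by-gene weights, chosen after seeing the data, called 10211. Leaving out 1 array gave 0 to 4130 calls, the highest without si-lncMGPF replicate 1, which leaves each group alone on its slide. It gave 4 without si-lncMGPF replicate 2 and 0 without any other array (1872 to 2687 at an unadjusted p below 0.05).

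Member probes called numbered 0, but 1 with normexp (Myl9) and 5 with gene-by-gene weights, and 0 to 2 when 1 array was left out, the 2 being Myl9 (adjusted p = 0.0235) and Actg2 (adjusted p = 0.0279) without si-lncMGPF replicate 1, by limma. Of the 24616 tested probes, normexp called 32, gene-by-gene weights 10211, and the fit without si-lncMGPF replicate 1 called 4130. The median of the 8 genes (-0.22) was -0.442 with slide as a block and on slide 1 alone, which rest on 1 si-lncMGPF array, -0.378 with slide as a random block, and -0.299 to -0.126 when 1 array was left out, weakest without si-lncMGPF replicate 1. The changes of Acta2, Cnn2 and Smtn, none called, turned sign. Acta2 was -0.099 after quantile normalization, -0.072 with normexp, -0.042 with the signal trend removed, -0.173 with slide as a block and on slide 1 alone, -0.1 with slide as a random block, -0.03 without si-NC replicate 1 and -0.003 without si-lncMGPF replicate 3. With 1 array left out its highest value was 0.204, without si-lncMGPF replicate 1. In the same order of settings Cnn2 was -0.006 (quantile), -0.02 (trend removed), -0.058 (slide as a block, slide 1 alone) and -0.034 (random block), and also -0.001 with array weights and -0.014 to 0.065 with 1 array left out (lowest without si-lncMGPF replicate 3, highest without si-lncMGPF replicate 1). Its highest value over all alternatives was 0.08, with gene-by-gene weights. Smtn ranged from -0.186 to 0.001 when 1 array was left out, the highest without si-lncMGPF replicate 1. The cause was not tested.

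Whether replicate numbers pair the samples was not settled. Deviations of same-numbered arrays correlated at 0.185, 0.318 and -0.058. Arrays numbered 1 and 2 correlated best with their own number, and those numbered 3 did not. With the replicate block 0 probes passed (4415 at an unadjusted p below 0.05, limma), with an adjusted p of 0.211 for Myl9.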
